A study of Saccharomyces cerevisiae with 4 samples.

Results

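The genes described here are 60 ribosome biogenesis factors of the budding yeast Saccharomyces cerevisiae, taken by their systematic names from a table of 7126 gene rows. They are nucleolar factors that assemble the ribosomal subunits before they leave the nucleus. They were sorted by their known role into 23 small subunit factors, 27 large subunit factors and 2 smaller classes. In these, 4 factors act on both subunits or elsewhere, called factors of both subunits below. The other 6 are core proteins of the small nucleolar ribonucleoproteins (snoRNPs). The rule that lists the 60 genes uses no measured value, but the members and lists were chosen with earlier results of these data known. Poly(A) RNA was sequenced in 2 libraries with +116, a CRISPR interference guide against the GAL10 noncoding RNA, and in 2 libraries with a scrambled guide. CRISPR interference blocks transcription with a catalytically dead Cas9 brought to DNA by the guide. BY4741, the strain behind all 4 libraries, is a MATa haploid with deletion alleles of HIS3, LEU2, MET17 and URA3. The cells grew to mid-log phase, from an optical density of 0.1 to 0.4, in glucose medium without leucine and uracil. The libraries of each guide carry the letters A and B. The labels speak of 2 strains for each guide, but nothing says that the letters pair libraries across guides or that each library came from its own culture, so the p-values below measure the spread between these libraries, which may be technical.

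A ribosome begins as one long precursor RNA that RNA polymerase I makes in the nucleolus. Small subunit factors bind the growing precursor together with the U3 small nucleolar RNA and form the small subunit processome, while large subunit factors fold, trim and escort the other portion of the precursor. Box C/D and box H/ACA snoRNPs guide the methylation and pseudouridylation of the RNA. Genes for these factors are known in yeast as one of the most tightly co-regulated groups, and they are known to fall together when growth slows. Many of their promoters hold a PAC element, which the repressors Dot6 and Tod6 bind, and an RRPE element, which the repressor Stb3 binds.

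The promoter sequences show how much the members share on the DNA. The PAC core was searched as GATGAG and the RRPE core as GAAAANTTT, on both strands. The window was the 250 bases before the start codon in the R64 genome of RefSeq. A PAC core was found in 55 of 60 members (91.67%), against 1022 of 6001 windows of the same length (17.03%). An RRPE core was found in 52 members (86.67%), against 648 windows (10.8%). Both cores occurred in 48 members (80%) and in 268 of all windows (4.466%). Of the 48 promoters, 37 held a pair within 30 bases. The stretches below come from members named in the results that hold such a pair, and each reads 5′ to 3′ on the strand of its gene. Capitals mark the pair of cores with the shortest span, and further matches are left in lower case. GATGAG and CTCATC are the PAC core on either strand, and the longer run in capitals is the RRPE core.
CIC1: aaaAAATTTTTCcactggagCTCATCgcaa
NOG2: cgatgCTCATCgcaaAAATTTTTCgcttga
NIP7: atGAAAATTTTtgaaatatgcGATGAGctt
EBP2: actaCTCATCgggactGAAAATTTTttatt
UTP9: aattttGAAAAATTTaacGATGAGatggag
NSR1: cagCTCATCgcaagaacGAAAATTTTcaat
MPP10: cagAAAATTTTCaattttgcGATGAGctct
UTP8: aaaatttGAAAACTTTGATGAGatgaggtc
DBP2: ccgatgCTCATCgcaGAAAATTTTtccttc
RRP5: aattttGAAAAATTTtaaGATGAGatgagc
NHP2: aaAAATTTTTCtgaaaaaaagtGATGAGga
CBF5: tttgaAAAATTTTCaaatGATGAGatgttt
NOP58: tttcaacCTCATCGAAAATTTTcagaaaag

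In these 13 stretches the RRPE core stands before the PAC core in CIC1, NIP7, UTP9, MPP10, UTP8, RRP5, NHP2 and CBF5, and after it in NOG2, EBP2, NSR1, DBP2 and NOP58. In UTP8 and NOP58 the cores adjoin with 0 bases between them. RLP24, NOP15, RLP7 and DBP8 are not among them because their cores stand 32, 33, 31 and 119 bases apart. IMP3 is not among them because it holds no RRPE core. The stretch of CIC1 on chromosome VIII runs from 143 to 114 bases before the start codon, that of NSR1 on chromosome VII from 190 to 161, and that of MPP10 on chromosome X from 95 to 66. Each of the 48 members with both cores was described by its pair with the shortest span, a choice that favours small gaps. In these pairs RRPE was the farther from the start codon in 36, and the median gap was 7.5 bases. Of the gaps, 39 were 20 bases or shorter, while the widest was 119 bases. Gaps in other windows with both cores were not measured. The positions were also narrow: 83.9% of 87 PAC matches in members lay 80 to 180 bases before the start codon, against 49.6% of 1201 matches in all windows. For RRPE these shares were 79.4% of 97 matches and 66.0% of 835. Overlapping matches were counted as separate matches. These were RRPE matches on opposite strands and PAC matches that share a base, as in DBP9 and RLP24. The search gave no PAC core in UTP4, UTP15, UTP22, NOP53 and SPB1 and no RRPE core in UTP5, UTP22, IMP3, IMP4, RRP9, DBP9, NOP12 and NOP16, so UTP22 was the member with neither, against 76.6% of all windows.

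**Figure D1:**
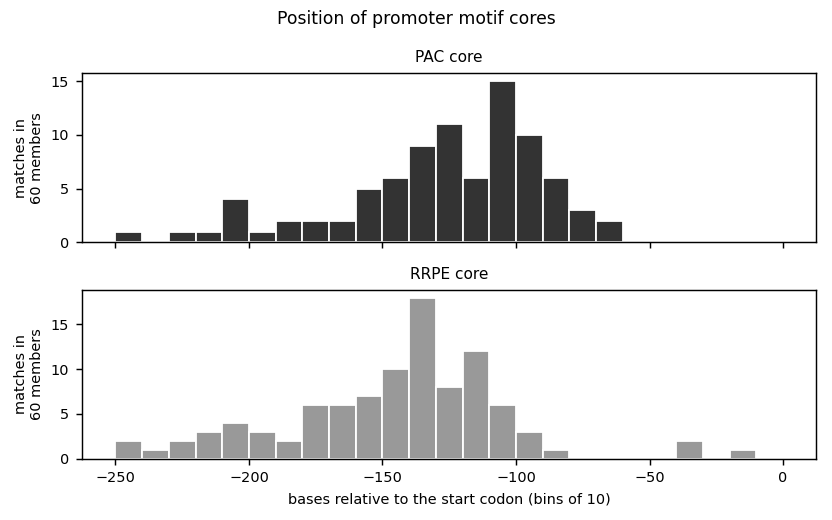
Number of PAC (upper) and RRPE (lower) core matches in the windows of the 60 members, in bins of 10 bases by distance before the start codon. Most matches lie 80 to 180 bases before the start, with medians of 122 bases for PAC and 140 bases for RRPE.

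Among 86 other ribosome assembly genes, a list of further assembly factors set beside the members, 89.5% of windows held PAC, 81.4% RRPE and 72.1% both. The genes of the ribosomal proteins themselves differed in this: 10.1% of 138 windows held PAC, 11.6% RRPE and 0.725% both. A match to these letters is a description of the DNA and was not tested as a binding site.

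The library totals, as whole reads worked back from the normalized values, were 37077366 and 36731031 with +116, against 40628383 and 34215480 with the scrambled guide. A normalized read count here is the number of reads of a gene divided by 1 size factor per library, which lay between 0.913 and 1.11. Of the 7126 rows, 6277 had a mean of at least 5 and were tested, and all 60 members were among them, with means of 1748.1 to 25223.4. GAL1, the neighbour of GAL10, had 133.0 and 115.7 normalized reads with +116 and 410.6 and 469.0 with the scrambled guide (log2 fold −1.81, adjusted p = 3.7e-06, limma). GAL10 had 192.0 and 171.0 with +116 and 95.0 and 113 with the scrambled guide (log2 fold 0.80, adjusted p = 0.0403, limma). The strand setting of the counting was not stated, so reads of GAL10 and of the antisense noncoding RNA cannot be told apart. Whether reads of that RNA also fell on the GAL1 row was not tested. Of the genes with deletion alleles, MET17 was at 0 in all 4 libraries, while HIS3 had 3381.2 to 4210.6 normalized reads and LEU2 194668 to 233299. URA3 had 47034 and 52553 with +116, against 94116 and 64823 with the scrambled guide, and was called lower (log2 fold −0.65, adjusted p = 0.0413, limma). The labels do not say what the LEU2 and URA3 reads came from, and the part of this difference in the members' values was not tested. Markers of mating type a such as STE2 and MFA2 had 22541 to 26546 normalized reads in every library. The alpha factor genes MF(ALPHA)1 and MF(ALPHA)2 had 5.0 to 49.7, while STE3, the other alpha marker listed, had 302 to 378.

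As a group the 60 members made up 1.153% of all normalized reads, and they are strongly expressed: per kilobase of coding length, 56 of 60 lay above 1450.0, the median of 5794 tested genes with a length. The snoRNP core proteins stood highest, with a median of 14077 normalized reads per kilobase over 6 genes, followed by the large subunit factors (4855 over 27), the factors of both subunits (3879 over 4) and the small subunit factors (2305 over 23). The order of these medians is a description and was not tested.

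**Figure D2:**
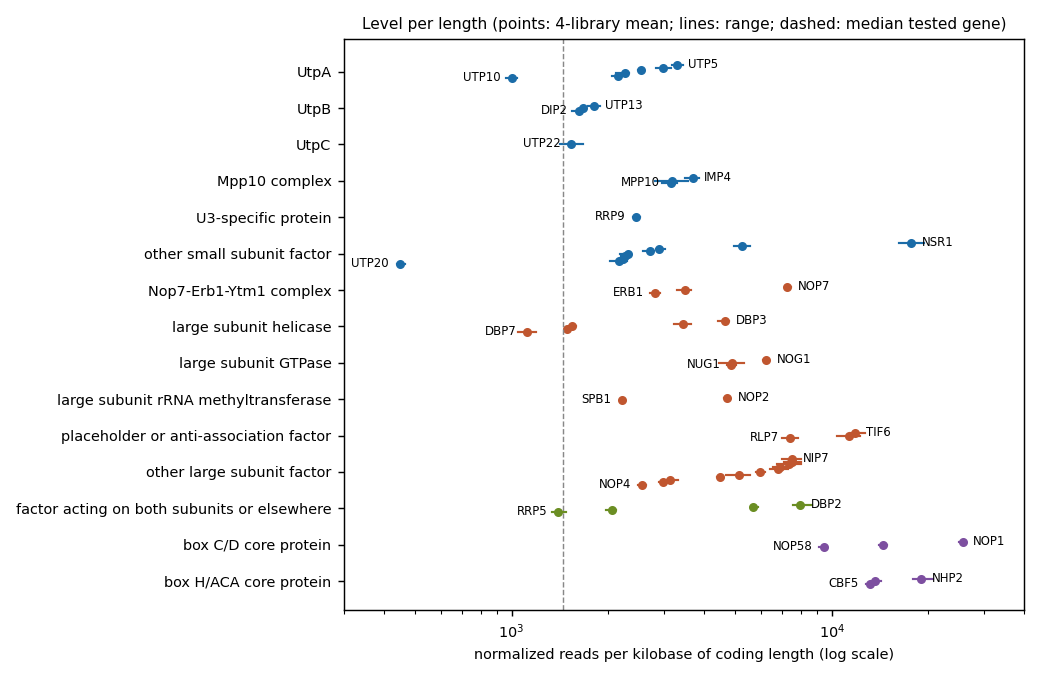
Mean level per kilobase of coding length over the 4 libraries (points) with the range over the libraries (lines), on a log axis, by role; the dashed line marks the median tested gene. Colours stand for small subunit (blue), large subunit (orange), both subunits (green) and snoRNP core (purple) factors, and the lowest and highest gene of each role are named, from UTP20 at 448.5 to NOP1 at 25634 per kilobase.

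NOP1 (YDL014W), the fibrillarin methyltransferase of box C/D snoRNPs, had 25634 normalized reads per kilobase. NSR1 (YGR159C), a nucleolin-like RNA-binding protein of the small subunit, had 17680. At the low end UTP20 (YBL004W), a very long helical repeat protein of the small subunit processome, had 448.5 per kilobase, with an SD of 11.5 over the 4 libraries. Neighbours in the order were often closer than their spread, as for NIP7 (7517 ± 481 per kilobase, SD over the 4 libraries) and BRX1 (7507 ± 415).

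Subunits of one complex were compared per length. The genes of a complex differ in length, and the part of length in these levels was not tested. Some of the highest are short, as NOP10 (177 bp), and some of the lowest are long, as UTP10 (5310 bp). Others go the other way, as NOP7 (1818 bp) stood above YTM1 (1383 bp). UtpA, the complex that first binds the precursor, held UTP4, UTP5, UTP8, UTP9, UTP10 and UTP15 among the members, and the level of UTP5 (3296 per kilobase) was 3.30 times that of UTP10 (1000). The 3 UtpB members UTP13, UTP21 and DIP2 lay within 1.12 times of each other, from 1623 to 1811, and with PWP2, UTP6 and UTP18, the other subunits, within 1.27 times. The Mpp10 complex, which joins the U3 snoRNA to the precursor, was nearly as even: IMP4 had 3695 per kilobase, IMP3 3167 and MPP10 3153. Unequal levels were seen for the large subunit complex of NOP7 (7256), YTM1 (3483) and ERB1 (2799), where the highest was 2.59 times the lowest. In box C/D snoRNPs NOP1 stood 2.71 times above NOP58 (9450), and SNU13, the subunit outside the member list, reached 30463. In box H/ACA snoRNPs NHP2 (18956), GAR1 (13685) and CBF5 (13172) were within 1.44 times of each other, and NOP10, also outside the list, had 38784. By library, the ratio of highest to lowest in UtpA was 3.30 and 3.13 with +116, against 3.42 and 3.34 with the scrambled guide. For UtpB with all 6 subunits it was 1.19 and 1.22 with +116, against 1.34 and 1.38. For box C/D with SNU13 it was 3.07 and 2.92, against 3.42 and 3.48. The guides overlapped for NOP7, YTM1 and ERB1 (2.63 and 2.57, against 2.55 and 2.61) and for the Mpp10 complex (1.31 and 1.15, against 1.18 and 1.17). These differences were not tested. The log2 fold between the guides was higher in longer genes (Spearman rho 0.561 over 5794 tested genes). Genes in these ratios differ in length, as SNU13 (381 bp) and NOP58 (1536 bp) do. The part of length in the ratios was not tested.

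Between the guides, 53 of 60 members had a lower mean with +116 (log2 fold below 0), where 49.5% of all tested genes did, and their median log2 fold was −0.06, against 0.0013 over all tested genes. No member passed the test. In bulk RNA, a lower level per cell and fewer cells that express a gene cannot be told apart. limma, fitted to log2(value + 1) over all 6277 tested genes with Benjamini-Hochberg adjustment, called 53 genes (0.844%), and 0 of the 60 members. At an unadjusted p under 0.05, 18 members were lower with +116 and 0 higher, where 10.3% of tested genes were lower and 11.5% higher. On whole reads, edgeR called 2 members, IMP3 and RLP24, where it called 2.64% of all tested genes, and DESeq2 called 1, RLP24, where it called 2.87%. The groups did not overlap for 39 members that were lower in both +116 libraries than in either scrambled library and for 0 that were higher, where 26.3% and 27.3% of tested genes did so.

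**Figure D3:**
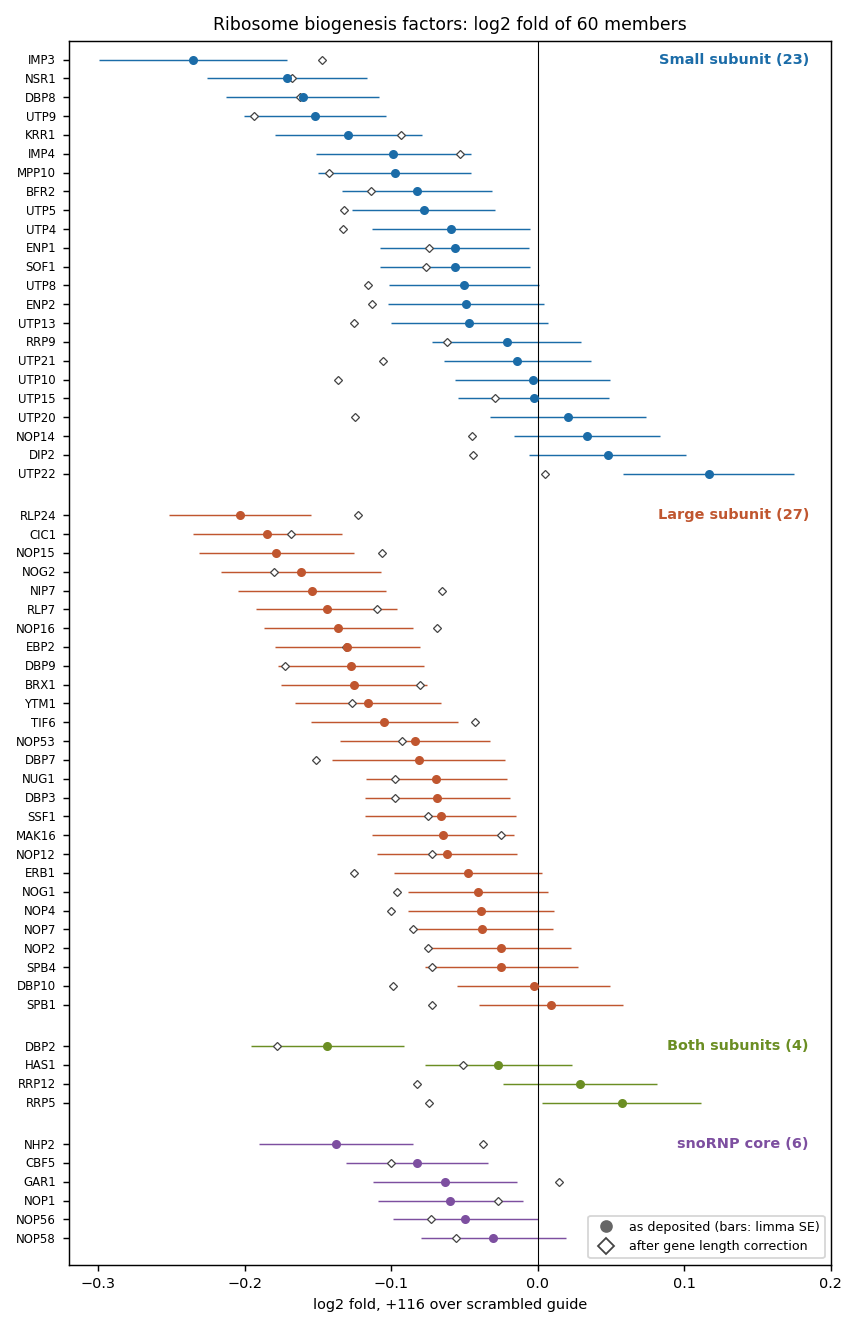
Log2 fold, +116 over scrambled guide, of each member (filled points, bars are the limma SE) and the same after a correction for gene length (open diamonds), by class and ordered within it. Small and large subunit factors mostly lie left of 0, from −0.24 for IMP3 to 0.12 for UTP22.

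RLP24 (YLR009W), a placeholder for the ribosomal protein Rpl24 in the maturing large subunit, had 6400.4 and 6233.5 normalized reads with +116, against 7197.4 and 7346.5 with the scrambled guide. It was lower in both +116 libraries, and its log2 fold was −0.20 ± 0.05 (SE; adjusted p = 0.0559, limma), a level 0.869 times that with the scrambled guide. IMP3 (YHR148W), a small protein that helps U3 pair with the precursor, had 1548.9 and 1662.5 with +116, against 1813.4 and 1967.8 with the scrambled guide. The groups did not overlap, and the log2 fold was the lowest of all members, −0.24 ± 0.06 (SE; adjusted p = 0.0820, limma). These 2 genes were the ones past the threshold in edgeR, with adjusted p of 0.0499 for RLP24 and 0.0491 for IMP3, and in DESeq2 RLP24 had 0.0273.

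CIC1 and NOP15, which bind the internal spacer of the large subunit precursor, followed in the order of p, before UTP9, NSR1 and DBP8. CIC1 (YHR052W), which binds there and is also called NSA3, had 5305.5 and 5530.5 normalized reads with +116, against 6017.1 and 6297.9 with the scrambled guide (log2 fold −0.18 ± 0.05 SE, adjusted p = 0.0848, limma). NOP15 (YNL110C), which binds the same spacer, had 4468.6 and 4661.5 with +116, against 5005.1 and 5329.4 with the scrambled guide (log2 fold −0.18 ± 0.05 SE, adjusted p = 0.0964, limma). In both genes the groups did not overlap. NIP7 (YPL211W), an RNA-binding factor of the large subunit, had 3950.6 and 3819.7 with +116, against 4264.4 and 4381.6 with the scrambled guide (log2 fold −0.15, adjusted p = 0.119, limma). RLP7, found at that spacer as well, had a log2 fold of −0.14, NOG2, a GTPase, −0.16, and EBP2 and BRX1 −0.13 each, all without overlap. RLP7 is related to a ribosomal protein, and NOG2 carries 1 intron, which overlaps a noncoding RNA gene. SSF1 has the near-identical copy SSF2, so its reads may be shared and its value (−0.07) is uncertain.

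On the small subunit side UTP9 (YHR196W), a UtpA subunit, had 4873.5 and 4882.8 normalized reads with +116, against 5387.6 and 5454.3 with the scrambled guide (log2 fold −0.15 ± 0.05 SE, adjusted p = 0.112, limma). NSR1 had 20222 and 21181 with +116, against 22427 and 24217 with the scrambled guide (log2 fold −0.17, adjusted p = 0.112, limma). The groups did not overlap in either gene. DBP8 (YHR169W), an RNA helicase, had 2661.7 and 2639.0 with +116, against 2956.6 and 2968.2 with the scrambled guide (log2 fold −0.16, adjusted p = 0.115, limma). UTP20, the lowest small subunit factor per kilobase, had 3281.7 and 3477.8 with +116, against 3314.7 and 3347.3 with the scrambled guide, and overlapped. At the other end UTP22 (YGR090W), a subunit of the UtpC complex, had 5676.5 and 6188.2 with +116, against 5689.7 and 5252.7 with the scrambled guide, and its groups overlapped (log2 fold 0.12, adjusted p = 0.263, limma). UTP22 is the member with neither promoter core and is long, at 3714 bp.

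Subunits of one complex were also set side by side between the guides. In UtpA all 6 members had a log2 fold below 0, with a median of −0.05. UTP5, one of them, had 6114.4 and 6276.7 normalized reads with +116, against 6624.9 and 6453.5 with the scrambled guide, UTP8 had 4418.6 and 4663.5 with +116, against 4671.3 and 4730.0 with the scrambled guide, and UTP4 had 4941.5 and 5375.6 with +116, against 5427.4 and 5311.8 with the scrambled guide. UTP5 and UTP8 did not overlap and UTP4 did. UTP10, the longest UtpA subunit, had 5094.5 and 5516.4 with +116, against 5318.9 and 5309.6 with the scrambled guide, and UTP15 had 3838.6 and 3979.7 with +116, against 3849.2 and 3983.9 with the scrambled guide. Both overlapped, at log2 folds nearest 0 in the complex (−0.0035 and −0.0028). UtpB overlapped throughout: UTP13 had 4247.6 and 4497.6 with +116, against 4639.7 and 4392.6 with the scrambled guide, UTP21 had 4603.6 and 4758.1 with +116, against 4666.8 and 4785.9 with the scrambled guide, and DIP2 had 4553.6 and 4791.3 with +116, against 4657.8 and 4384.9 with the scrambled guide. In the Mpp10 complex, besides IMP3, IMP4 had 3197.7 and 3034.3 with +116, against 3318.3 and 3352.8 with the scrambled guide, and MPP10 had 5240.5 and 5619.0 with +116, against 5750.3 and 5863.0 with the scrambled guide. All 3 genes of that complex were lower in both +116 libraries.

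Among large subunit complexes, YTM1 had 4545.6 and 4702.8 normalized reads with +116, against 5040.3 and 4979.8 with the scrambled guide. NOP7, which binds the precursor with ERB1 and YTM1, had 12952 and 13082 with +116, against 13549 and 13180 with the scrambled guide, and ERB1 had 6556.4 and 6788.6 with +116, against 7075.3 and 6720.9 with the scrambled guide. ERB1 overlapped and the other two did not. TIF6, which keeps the large subunit from joining the small one too early and is the highest large subunit factor per kilobase (11862), had 8421.2 and 8447.1 with +116, against 8798.2 and 9350.5 with the scrambled guide (log2 fold −0.10, adjusted p = 0.242, limma). DBP7, an RNA helicase and the lowest (1119 per kilobase), had 2342.8 and 2505.3 with +116, against 2650.9 and 2478.4 with the scrambled guide, and SPB1, an rRNA methyltransferase, had 5536.5 and 5681.3 with +116, against 5646.3 and 5499.2 with the scrambled guide. Both overlapped, and SPB1 was the highest log2 fold of the class (0.0093).

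Of the 6 snoRNP core genes, all had a log2 fold below 0, from −0.14 for NHP2 to −0.03 for NOP58. NHP2 (YDL208W), a box H/ACA subunit, had 8570.2 and 8429.0 normalized reads with +116, against 8980.9 and 9732.9 with the scrambled guide (log2 fold −0.14, adjusted p = 0.162, limma). CBF5, the pseudouridine synthase, had 18590 and 18569 with +116, against 19479 and 19862 with the scrambled guide (log2 fold −0.08, adjusted p = 0.342, limma). Neither gene's groups overlapped. NOP1 had 24634 and 24771 with +116, against 25658 and 25831 with the scrambled guide (log2 fold −0.06, adjusted p = 0.511, limma). GAR1 had 8197.2 and 8343.5 with +116, against 8446.4 and 8843.2 with the scrambled guide, NOP56 had 21777 and 21310 with +116, against 22018 and 22571 with the scrambled guide, and NOP58 had 14045 and 14683 with +116, against 14546 and 14786 with the scrambled guide. NOP58 was the one of the 6 whose groups overlapped. The 4 factors of both subunits were mixed: DBP2, an RNA helicase with 1 intron, had 12428 and 12462 with +116, against 13227 and 14288 with the scrambled guide (log2 fold −0.14, adjusted p = 0.145, limma), while RRP5, needed for cleavages of both subunits, had 7140.3 and 7698.8 with +116, against 6919.7 and 7336.6 with the scrambled guide (log2 fold 0.06, adjusted p = 0.571, limma), and overlapped.

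Small and large subunit factors were compared by the median of their log2 folds. The 23 small subunit factors had a median of −0.06, with 19 below 0, and 12 did not overlap in the lower direction. The 27 large subunit factors had −0.08, with 26 below 0 and 21 without overlap. Of all tested genes, 49.5% were below 0 and 26.3% did not overlap in the lower direction. The difference of the medians, small minus large, was 0.0248, about as large as the spread between libraries (SD 0.0253), and the order of the classes cannot be read from it. The small subunit median was −0.011 without the +116 A library and −0.088 without the +116 B library. Gene length goes along with it: small subunit factors have a median coding length of 1782 bp and large subunit factors 1383 bp.

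**Figure D4:**
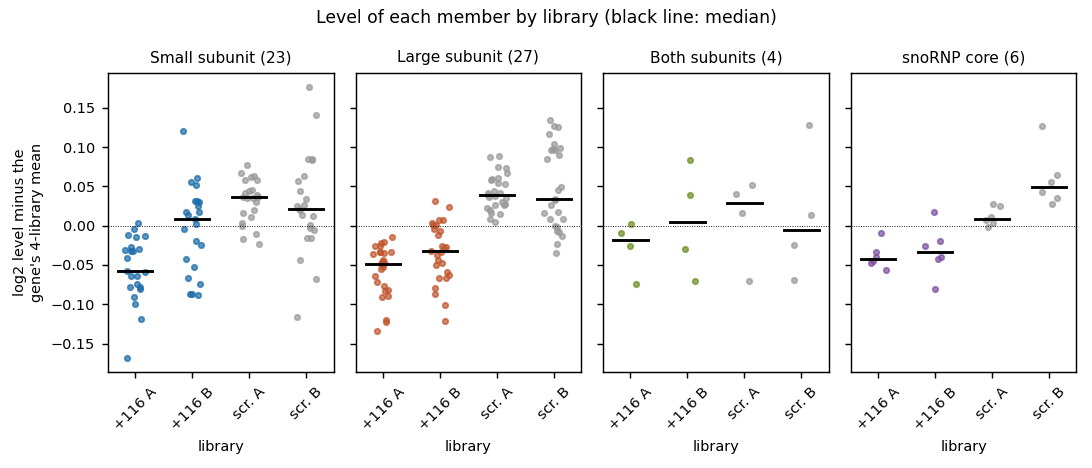
Log2 level of each member minus the mean of that gene over the 4 libraries, by class, in the 2 +116 libraries (coloured, left) and the 2 scrambled libraries (scr., grey, right), with the median as a black line. For large subunit factors both +116 medians (−0.049 and −0.032) lie below both scrambled medians (0.039 and 0.034), and for small subunit factors the +116 B median (0.0083) lies near 0.

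By library, the median deviation of the 60 members from the mean of each gene was −0.046 and −0.025 with +116, against 0.036 and 0.030 with the scrambled guide. The +116 libraries differed from each other: 45 of 60 members were lower in A than in B, most of all among small subunit factors, where this held for 19 of 23 (median A minus B −0.067). Set against the scrambled libraries, the +116 A library had 59 and 53 members lower, and the +116 B library 49 and 44.

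The log2 fold was higher in longer members. Over the 60 genes, which share the same 4 libraries, the Spearman rho of log2 fold with coding length was 0.771, and over all 5794 tested genes with a length it was 0.561. Members shorter than 1000 bp had a median log2 fold of −0.13 (14 of 14 below 0), those of 1000 to 2000 bp −0.07 (29 of 29) and longer ones −0.0035 (10 of 17). All tested genes of these lengths had −0.07 (1742 of 2278 below 0), 0.015 (939 of 2195) and 0.093 (150 of 1310). In each bin the members' median lay below that of all tested genes. Within the bins small subunit factors had medians of −0.13 (3 genes), −0.08 (10) and −0.0088 (10), and large subunit factors −0.14 (8), −0.07 (14) and −0.04 (5). The part of length in the fold differences was not tested beyond the correction that follows.

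**Figure D5:**
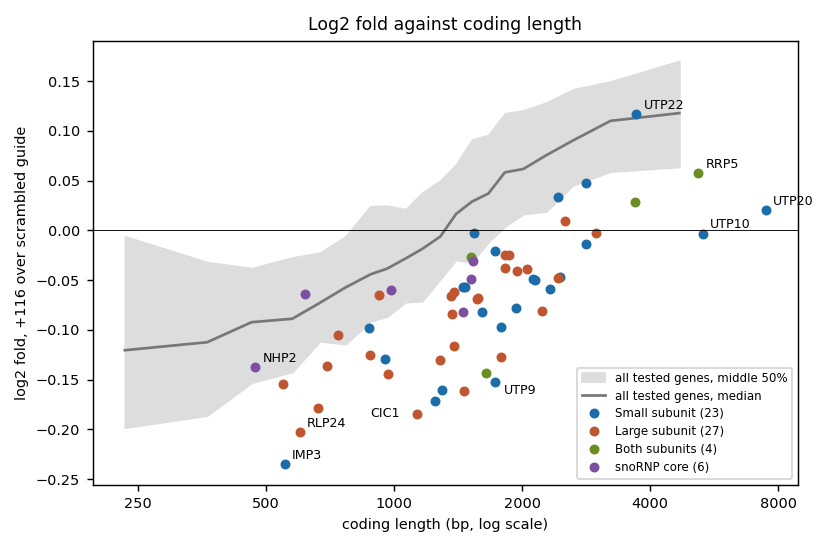
Log2 fold, +116 over scrambled guide, against coding length on a log axis, for members (coloured points) and for all tested genes (grey line, median in 20 bins of length; grey band, middle 50%). Short members such as IMP3 and RLP24 lie at −0.24 and −0.20, and most members lie below the grey line.

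A smooth curve against length was fitted, in each library, to the deviations of all tested genes with a length from their 4-library means, and removed. After it, 58 of 60 members were below 0, where 49% of tested genes were, with a median of −0.10, and 35 had an unadjusted p under 0.05 and a lower level, where 5.75% of tested genes did. Again no member was called, with a lowest adjusted p of 0.253 in limma, and 1 gene of all 5794 passed (0.0173%). UTP22 (0.0047) and GAR1 (0.015) were the members at or above 0. The small and large subunit medians became −0.11 and −0.10, so their difference changed sign to −0.017.

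Genes of the same pathway outside the members were counted in the same way. Of the 86 other ribosome assembly genes, 77 had a log2 fold below 0, the median was −0.08 (−0.09 after the length correction, with 85 below 0; −0.056 without the +116 A library), and 1 was called lower, SNU13 (YEL026W), the box C/D and spliceosome protein, with 10695 and 10649 normalized reads with +116, against 12329 and 12754 with the scrambled guide (log2 fold −0.23, adjusted p = 0.0477, limma). After the length correction SNU13 was not called (log2 fold −0.12, adjusted p = 0.288, limma). The 138 ribosomal protein genes were all below 0, with a median of −0.16, and 6 were called lower. After the correction 130 were below 0, the median was −0.06 and 0 were called, with 25 lower at an unadjusted p under 0.05 in limma. Of 12 regulators of these genes, 2 were below 0 (median 0.07) and none was called, and after the correction 6 were below 0 (median −0.0059). DOT6, the PAC repressor, had a log2 fold of 0.11 and its paralog TOD6 −0.15, and SFP1 and IFH1, activators, had 0.09 and 0.10 (adjusted p of 0.221 to 0.360 in limma). After the correction DOT6 had 0.05, TOD6 −0.18, SFP1 0.03 and IFH1 0.0027.

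In 7 places a member lies next to another assembly gene on the chromosome: RRP3 and SSF1 are divergent, RPF1 and GAR1 convergent, and DBP8 and NMD3, UTP9 and RIX1, PWP1 and NOP56, RSA3 and UTP13, and NOG2 and ESF2 run in the same direction. The log2 folds of the 14 genes were all below 0, from −0.16 for NOG2 to −0.03 for RRP3. In the lists they come from, 53 of 60 members and 77 of 86 other assembly genes were below 0 as well. By the number of PAC matches, where matches that share a base count as separate, 5 members with none had a median of −0.0028. The 32 with 1 had −0.07 and the 23 with more had −0.07. After the length correction these medians were −0.07, −0.09 and −0.10. The 8 members without an RRPE core had a median of −0.09 and the 52 with one −0.06, and after the correction −0.07 and −0.10.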

How the data were processed

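The values are a signal of normalized read counts that the authors deposited, 1 column per library. Every value is a whole multiple of 1 step per library (100% of values within 1e-06 of a whole read, against 0% of the values above 0 as deposited), from which whole reads were worked back. The submitters' processing notes name bcl2fastq 1.8.4, Trimmomatic 0.30, TopHat2 2.0.8, Bowtie2, Picard 1.84 and DESeq2, without roles, and the labels name a stranded kit. The sources used here give no build, counter or strand setting, so reads of overlapping genes cannot be told apart.

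Rows with a mean of at least 5 (6277 of 7126) were tested with limma 3.58.1 in R 4.3.3 on log2(value + 1), with a mean-variance trend and Benjamini-Hochberg adjustment, called at an adjusted p under 0.05. Log2 folds are on this scale, which understates changes of low genes. edgeR 4.0.16 and DESeq2 1.42.0 on the whole reads were alternatives, with 2 scalings, other pseudocounts and filters, a replicate block, each library left out, and corrections for length (loess, span 0.5) and GC content. The limma fit and the length correction were run on simulated counts with known changes, all larger than those of the members. Lengths, promoter windows and neighbours come from the RefSeq R64 annotation by locus tag (6030 rows matched, all 60 members). Totals per library were 34215480 to 40628383 reads. Values in every library are given for the 8 members with the lowest p, the highest and lowest level per kilobase and the highest log2 fold in each class, and complexes with at least 3 members. The members and lists were chosen with earlier results of these data known.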

Additional observations from a re-analysis of the deposited data

How the results depend on the processing

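Over 18 alternatives, 1027 of 1080 pairs of member and setting kept their direction and side of the threshold, 16 gained a call and 37 reversed, in 16 members. Settings that change only the filter, the variance model or the block leave each log2 fold as it was. Part of the count of kept directions was therefore fixed in advance. The count of genes called, 53, became 166 with edgeR, 180 with DESeq2, 88 with TMM scaling, 149 with upper-quartile scaling, 7 with no filter on low values, 137 with a mean of at least 50, 1 without the variance trend, 410 with robust empirical Bayes, 1 after the length correction, 2 after length and GC, and 0 to 282 when 1 library was left out (0 without either scrambled library, 236 without +116 A and 282 without +116 B). Members called were 2 with edgeR, 1 with DESeq2, 2 with upper-quartile scaling, 1 with a mean of at least 50, 4 with robust empirical Bayes (IMP3, RLP24, NOP15 and CIC1) and 0 to 3 when a library was left out, 3 being without +116 B (IMP3, NOG2 and CIC1). The median log2 fold of the members was −0.08175 with upper-quartile scaling, −0.09668 after the length correction, −0.08898 after length and GC, and −0.07804 to −0.05443 when a library was left out. That of other ribosome assembly genes was −0.105 to −0.05595 when a library was left out.

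The letters A and B were also used as a replicate block. Deviations of same-lettered libraries correlated at −0.0413, which does not show that the letters pair them. With the block 258 genes and 2 members (IMP3 and RLP24) were called, and with the length correction and the block 0 genes, with the median of members at −0.09668.

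The small minus large subunit median, 0.0248, reversed to −0.01675 after the length correction, with or without the block, and to −0.007389 after length and GC. It ranged from 0.01589 to 0.06425 when a library was left out, the highest without +116 A. The median of the factors of both subunits reversed to −3.515e-05 with edgeR, −0.000165 with DESeq2, −0.01652 with upper-quartile scaling, −0.07821 after length, with or without the block, −0.07143 after length and GC, and was −0.04551 to 0.01335 when a library was left out.

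Long members reversed after the length correction, with or without the block, and after length and GC: DIP2 to −0.04423 and −0.03698, NOP14 to −0.04463 and −0.02135, UTP20 to −0.1246 and −0.1104, SPB1 to −0.07232 and −0.06443, RRP5 to −0.07405 and −0.07388, and RRP12 to −0.08237 and −0.06897. GAR1 reversed to 0.01452 after the length correction, and SPB1 to −0.008225 with upper-quartile scaling. When 1 library was left out, values crossed 0 within these ranges: UTP4 −0.1198 to 0.001686, UTP10 −0.06092 to 0.05385, UTP15 −0.02877 to 0.02327, UTP21 −0.03786 to 0.009763, RRP9 −0.04709 to 0.004869, UTP20 −0.02149 to 0.06222, ENP2 −0.1048 to 0.00729, DBP10 −0.03879 to 0.03314, SPB1 −0.009709 to 0.02837, RRP12 −0.02583 to 0.08365, HAS1 −0.06518 to 0.01151 and NOP58 −0.0624 to 0.001681. The cause was not tested where the setting itself does not show it. With 2 libraries a group, a lone library is assumed to vary like the other group when 1 is left out, and a member that missed the threshold is not shown to be without a difference.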
